A study of Mus musculus with 9 samples.

Results

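Cytochrome P450 genes encode haem enzymes that insert oxygen into steroids, vitamins, fatty acids, drugs and foreign compounds. The members described here are the genes of the deposited mouse tables whose symbol is Cyp followed by a family number, a subfamily letter and a gene number, which gave 94 of 24421 genes. They were grouped by subfamily into 6 genes of steroid hormone synthesis, 6 of cholesterol, oxysterol and bile acid metabolism, 3 of vitamin D metabolism, 3 of retinoic acid breakdown, 25 of fatty acid and eicosanoid metabolism, 50 of drug and xenobiotic metabolism, and Cyp20a1, an enzyme without a settled substrate. A subfamily is not a strict guide to function. Several enzymes placed with the drug group, among them Cyp2c44 and Cyp2e1, also oxidise fatty acids.

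The series holds 9 RNA sequencing libraries of mouse kidney and muscle in 8 groups, and its title concerns the Wnt antagonist Dkk1, endocytosis of the Wnt co-receptor LRP6, and cancer cachexia. Kidney was sampled once from a tumour-bearing mouse given PBS and once from a wild type mouse given PBS. Muscle was sampled from a tumour-bearing mouse given PBS, a tumour-bearing mouse given an agent labelled MDC, a beta-arrestin knockout given PBS, a beta-arrestin knockout given DKK1 and a wild type given DKK1, with 1 library each, and from wild type given PBS with 2 libraries. The labels do not say which tumour and which muscle were used, which beta-arrestin gene was deleted, what MDC stands for, or the strain, age and sex of the mice, and they link no library to an animal. The spread between the 2 wild type muscle libraries may therefore be technical or between animals.

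The deposited tables carry a letter in their names. The kidney pair has the letter A. Wild type muscle library 1 shares the letter B with the muscle of tumour-bearing mice, and wild type muscle library 2 shares the letter C with the DKK1-treated and knockout muscle. Kidney and the letter A cannot be told apart. The spread between the 2 wild type muscle libraries also includes any difference between the letters B and C. Libraries held from 21358854 to 44421797 counts. Kidney libraries expressed kidney markers and muscle libraries skeletal muscle markers, and all 9 held transcripts of Y-linked genes. Arrb1, one of the 2 widely expressed beta-arrestin genes, was measured in CPM, counts scaled to library size, at 17 and 20.7 in the wild type PBS libraries, 22.5 in wild type DKK1, 20.5 in knockout PBS and 28.8 in knockout DKK1 muscle. Arrb2, the other, was at 7.47 and 8.01 CPM in wild type PBS, 8.46 in wild type DKK1, 9.60 in knockout PBS and 8.14 in knockout DKK1 muscle. Levels in the 2 libraries labelled knockout thus lay within or above the range of the wild type libraries for both genes, and knockout is used only as the name on the label.

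In the kidney, the proximal tubule turns the circulating form of vitamin D into its active hormone with Cyp27b1 and inactivates it with Cyp24a1. The same cells carry omega-hydroxylases of the Cyp4a subfamily, which act on arachidonic acid and other fatty acids and answer to the nuclear receptor PPAR-alpha or to androgens, and epoxygenases of the Cyp2j subfamily. In mice many kidney P450 genes differ between males and females. Microsomal members draw electrons from the reductase Por and mitochondrial ones from ferredoxin, Fdx1.

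Upstream sequences of Cyp27b1, Cyp4b1 and Cyp1a1 are shown because these genes differed in separate ways: Cyp27b1 was higher in the tumour kidney, Cyp4b1 was lower there, and Cyp1a1 was uncalled between the tissues, with kidney values below every muscle value after TMM scaling of all 9 libraries but not in RPKM. Each run is the 250 bases before the start site in the RefSeq table of promoters, build GRCm38.p6, on the strand of the gene, at chr10:127047996-127048245 (plus strand), chr4:115647722-115647971 (minus strand) and chr9:57697363-57697612 (plus strand). Capitals mark any match to TGTTCT (a half-site of the androgen and glucocorticoid receptors), AGGTCA (a nuclear receptor half-site), GCGTG (the core bound by the aryl hydrocarbon receptor) or TATAAA (the TATA box), searched on both strands.
Cyp27b1: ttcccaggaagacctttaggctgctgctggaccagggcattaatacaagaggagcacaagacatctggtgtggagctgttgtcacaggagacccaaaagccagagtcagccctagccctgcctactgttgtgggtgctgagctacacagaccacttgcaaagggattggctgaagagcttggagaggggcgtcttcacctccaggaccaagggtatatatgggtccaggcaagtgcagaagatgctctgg
Cyp4b1: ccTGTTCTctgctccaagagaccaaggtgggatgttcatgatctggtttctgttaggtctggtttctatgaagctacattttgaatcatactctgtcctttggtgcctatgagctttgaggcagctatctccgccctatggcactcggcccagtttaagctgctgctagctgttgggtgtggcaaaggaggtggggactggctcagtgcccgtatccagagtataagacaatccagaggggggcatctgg
Cyp1a1: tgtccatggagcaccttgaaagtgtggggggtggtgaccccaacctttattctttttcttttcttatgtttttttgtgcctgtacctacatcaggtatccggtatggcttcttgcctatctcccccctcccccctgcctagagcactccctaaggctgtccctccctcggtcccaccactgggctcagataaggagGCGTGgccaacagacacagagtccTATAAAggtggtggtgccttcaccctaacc
None of the 4 words stood in the Cyp27b1 window. The Cyp4b1 window held TGTTCT at position -248 and the Cyp1a1 window held GCGTG at -54 and TATAAA at -30, counted from the start site. Over all 32851 promoters of the table, 16.1% held TGTTCT, 14.0% AGGTCA, 28.2% GCGTG and 12.4% TATAAA. The table held 25 of the 36 members with 100 or more counts in some library, with 26 start sites. TATAAA stood in 9 of these 26 windows, GCGTG in 9, TGTTCT in 4 and AGGTCA in 2. A match is a description of letters, not of a bound site.

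No count was found in any library for 14 members, among them Cyp11b1, Cyp11b2 and Cyp19a1, which make corticosterone, aldosterone and oestrogen. A further 44 members peaked at 1 to 99 counts. The 36 members with 100 or more counts in some library comprised 35 that reached this in a kidney library and 15 that reached it in a muscle library. Members with 1 or more counts numbered 67 in tumour kidney, 65 in wild type kidney and 37 to 48 in muscle. A count of 0 allows a level of up to 0.0674 to 0.138 CPM, depending on the library, for 3 counts and counting error only.

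P450 genes took 1.09% of all counts in wild type kidney and 0.738% in tumour kidney, and between 0.0145% and 0.0468% in muscle. On the deposited scale of RPKM, reads scaled by gene length and library size, which allows genes to be set beside each other, the members summed to 5320 in wild type kidney and 3610 in tumour kidney. In wild type kidney 57.8% of this sum lay in fatty acid enzymes and 39.3% in drug enzymes, and in tumour kidney 37.5% and 58.1%. The fatty acid class was at 3080 RPKM in wild type kidney and 1360 in tumour kidney. The drug class was at 2090 and 2100 RPKM. The difference in makeup thus lay in the fatty acid class, and there mostly in Cyp4b1. This gene was at 2200 RPKM in wild type kidney and 498 in tumour kidney. Other members of the class differed in both directions, with Cyp4a10 at 109 and 254 RPKM and Cyp2j13 at 113 and 34.7.

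**Figure D1:**
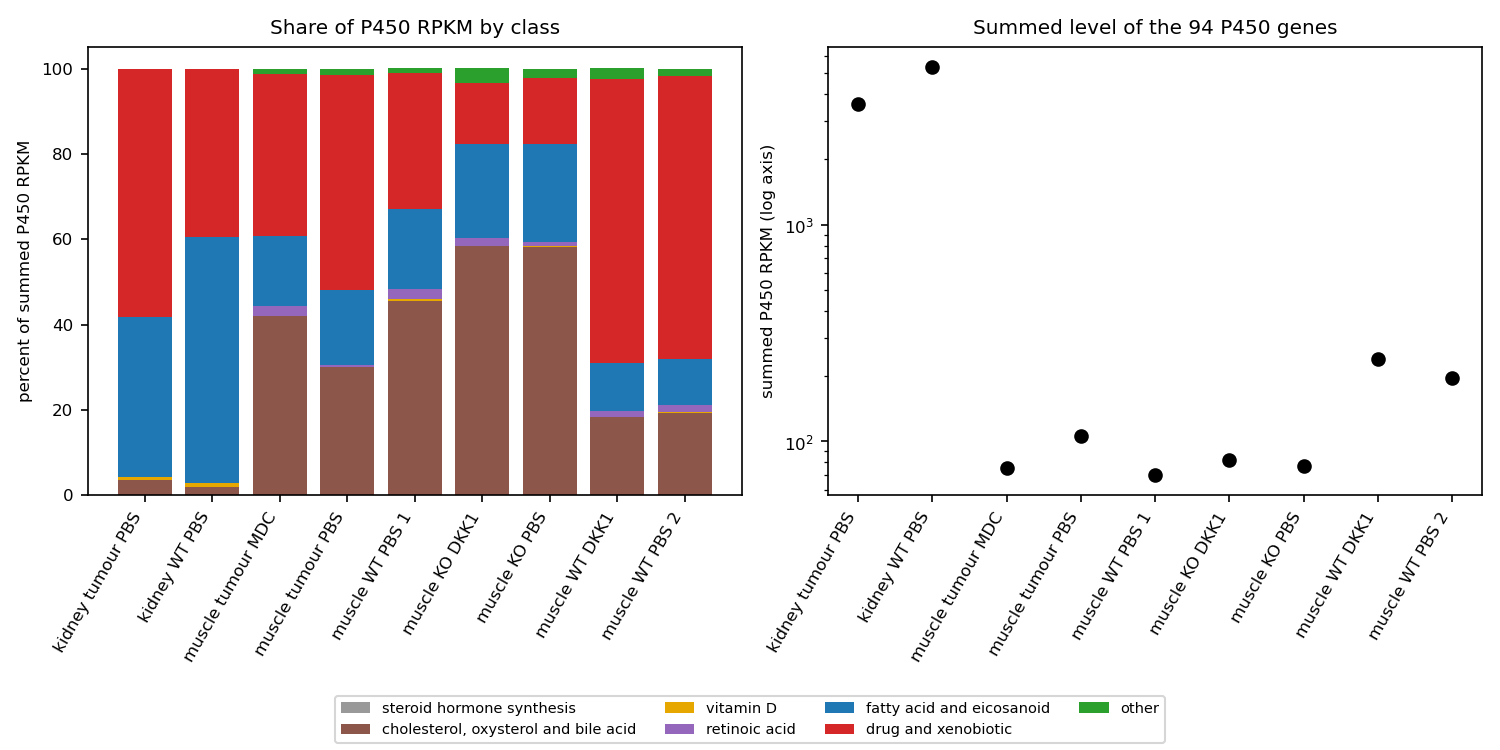
Left, the share of summed P450 RPKM held by each class (stacked bars, percent) in each of the 9 libraries; right, the summed RPKM of the 94 members on a log axis, 1 point per library. Kidney stood at 3610 and 5320 RPKM against 70.2 to 241 in muscle, and the tumour kidney had the smaller share of fatty acid enzymes.

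In wild type kidney the highest member was Cyp4b1, an enzyme that hydroxylates fatty acids and bioactivates some toxins, at 2200 RPKM, and in tumour kidney it was at 498. Cyp2e1, the ethanol-oxidising enzyme, was at 1320 RPKM in wild type kidney and 1570 in tumour kidney, where it led. Cyp2j5, an arachidonic acid epoxygenase of the kidney, came next in wild type kidney at 462 RPKM and stood at 329 in tumour kidney. Cyp2a4 followed at 316 and 101 RPKM, and Cyp2a5 at 181 and 142. The ranking below the leaders changed between both libraries, since Cyp4a10 was at 254 RPKM in tumour kidney and 109 in wild type.

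The comparison of tumour-bearing with wild type kidney rests on 1 library each and has no replicate check and no test. A member was counted as higher or lower where log2 CPM differed by 2-fold or more and the higher library held 100 or more counts. Of 35 members that could pass, 7 were higher and 9 lower in tumour kidney. Over all 12897 genes that could pass, 5.73% were higher and 4.01% lower. The median log2 difference was -0.19 over the 35 members and 0.01 over all such genes. Intervals given with ratios are exact 95% binomial intervals and cover counting error only.

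**Figure D2:**
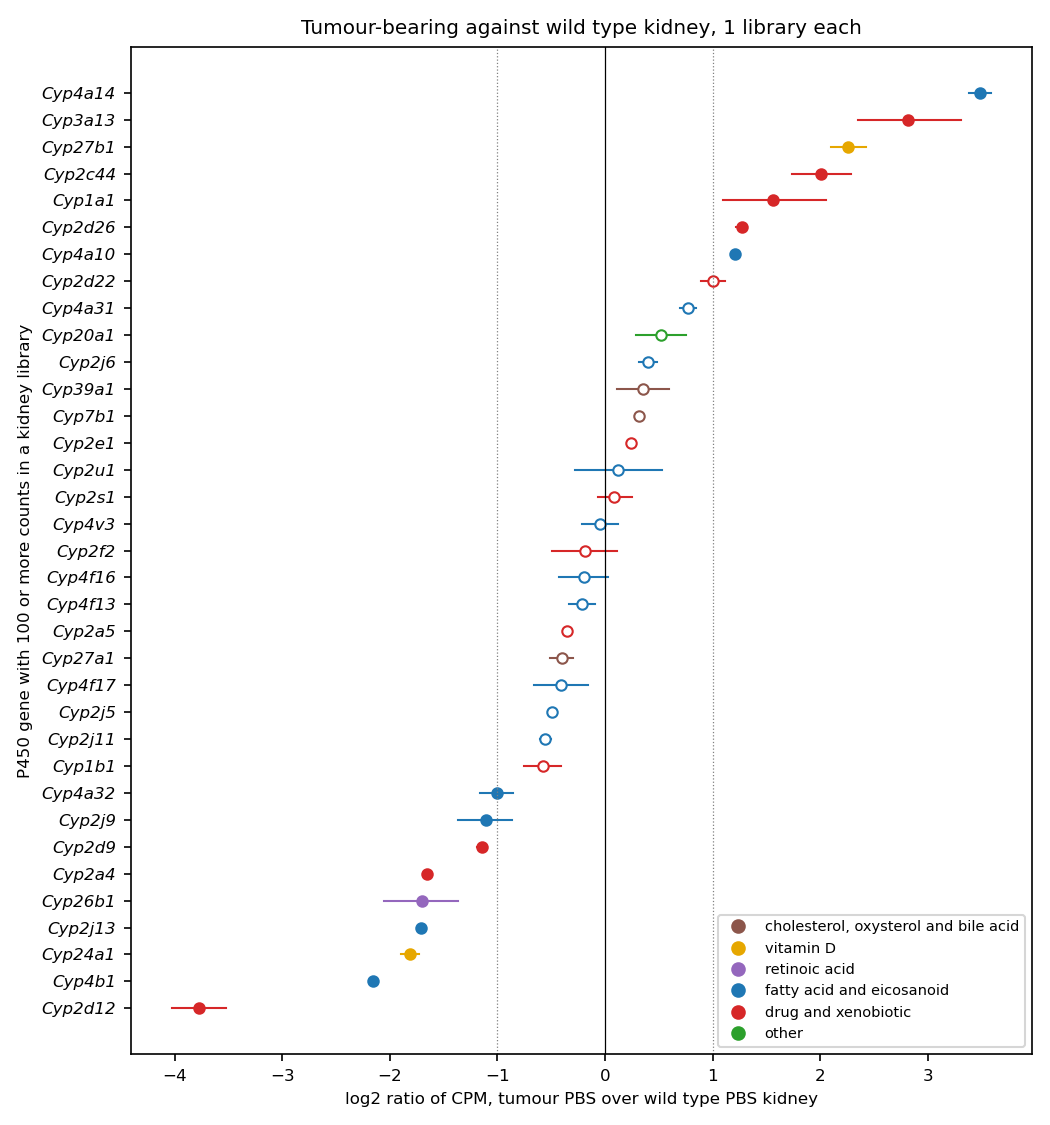
Log2 ratio of CPM, tumour PBS over wild type PBS kidney, for the 35 members with 100 or more counts in a kidney library, coloured by class; bars are 95% intervals for counting error and filled points passed the 2-fold rule (dotted lines). Cyp4a14 stood highest with a ratio of 11.2 and Cyp2d12 lowest, 13.6-fold lower in tumour kidney.

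The vitamin D enzymes moved in opposite directions. Cyp27b1 (chromosome 10, 127048250 to 127053006, plus strand, GRCm38) was at 41.9 CPM in tumour kidney, from 1867 counts, and 8.76 in wild type, from 371 counts, a ratio of 4.79 (95% interval 4.28 to 5.37). Cyp24a1 (chromosome 2, 170482708 to 170497145, minus strand) was at 34.0 CPM in tumour kidney and 119 in wild type, 3.51-fold lower (3.31 to 3.72). On the RPKM scale the activating enzyme Cyp27b1 stood above the inactivating Cyp24a1 in tumour kidney, at 17.4 against 10.3, and below it in wild type kidney, at 3.61 against 36.1. Cyp2r1, the main liver enzyme of the first hydroxylation, had 1 count in tumour kidney and 0 in wild type.

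Of 21 partners of vitamin D metabolism and its targets, 19 could pass the rule, of which 4 were higher in tumour kidney and none lower. Other lists compared by the 2-fold rule are likewise counted over genes that could pass. The vitamin D binding protein Gc was at 151 against 13.9 CPM, and the calcium channel Trpv5, of the distal tubule, at 28.7 against 10.1. The calcium-binding protein Calb1 and the channel Trpv6 completed the 4. The vitamin D receptor Vdr was at 215 CPM in tumour and 322 in wild type kidney, and Kl, the co-receptor for the hormone FGF23, at 554 and 1010. Neither passed the rule. Markers of the distal nephron and collecting duct, a list that also holds Calb1, were higher for 3 of 10 genes and lower for none, with summed levels of 11600 and 5550 CPM, and their part in the higher Trpv5 and Calb1 was not tested.

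Fatty acid enzymes were split, with 2 higher and 4 lower of 15. Cyp4a14, an omega-hydroxylase and target of PPAR-alpha, was at 205 CPM in tumour and 18.3 in wild type kidney, a ratio of 11.2 (10.4 to 12.0). Cyp4a10, of the same kind, was at 528 and 228 CPM, a ratio of 2.31 (2.26 to 2.37). Cyp4a31 was at 95.1 and 55.9 CPM and did not reach 2-fold.

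Cyp4b1 was at 930 CPM in tumour and 4130 in wild type kidney, 4.44-fold lower (4.40 to 4.49). The other lower fatty acid enzymes were Cyp2j13 at 152 against 496 CPM, Cyp2j9 at 4.42 against 9.56 and Cyp4a32 at 11.8 against 23.7. The last was the member just inside the threshold, 2.01-fold lower. Cyp2j5 was at 1200 and 1690 CPM, Cyp2j11 at 130 and 191, and Cyp2j6 at 54.6 and 41.5. Levels of Cyp4f13, Cyp4f16, Cyp4f17, Cyp4v3 and Cyp2u1 differed by 1.33-fold or less.

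Genes with opposite differences lay side by side on the genome. On chromosome 4, 9 Cyp4 genes span 541 kb from 115106323 to 115647723, in the GENCODE M21 annotation of GRCm38, in the order Cyp4x1, Cyp4a29, Cyp4a12a, Cyp4a12b, Cyp4a14, Cyp4a10, Cyp4a31, Cyp4a32 and Cyp4b1. The first 2 had 2 counts or fewer in every library. Cyp4a12a and Cyp4a12b, whose symbols end in a letter and so fall outside the rule for members, were 4.54-fold and 4.52-fold lower in tumour kidney. Cyp4a12a, the androgen-induced omega-hydroxylase of arachidonic acid in mouse kidney, was at 214 CPM in tumour and 972 in wild type kidney. Cyp4a14 and Cyp4a10, both higher, lie between these and the lower Cyp4a32 and Cyp4b1, which are 3.1 kb apart.

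Read assignment in this cluster is uncertain for some genes. Of all 50-base stretches in the longest transcript of Cyp4a32, 46.8% also occur in another Cyp gene, most often Cyp4a10. The figure, always for the longest transcript, was 30.5% for Cyp4a10 and 20.1% for Cyp4a31. For Cyp4a14 it was 0.2% and for Cyp4b1 10.3%. Sharing was not measured for Cyp4a12a and Cyp4a12b.

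Partners of fatty acid metabolism were higher for 4 of 17 and lower for 1. The prostaglandin synthase Ptgs2 was at 7.37 CPM in tumour and 0.378 in wild type kidney. Pparg and Ptgs1 were also higher. Ephx2, the soluble epoxide hydrolase that breaks down the products of epoxygenases, was at 247 and 504 CPM. The PPAR-alpha gene itself, Ppara, was at 188 and 166 CPM, and Cpt1a, a target of its product, at 538 and 592.

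Drug enzymes were higher for 4 and lower for 3 of 13. Cyp3a13 was at 7.14 CPM in tumour and 1.01 in wild type kidney, a ratio of 7.04 (5.11 to 9.92). Cyp2c44, which makes epoxides of arachidonic acid, was at 13.0 and 3.23 CPM, and Cyp1a1, the classic target of the aryl hydrocarbon receptor, at 3.48 and 1.18. Cyp2d26 was at 281 and 117 CPM. Cyp2d22 stood just outside the threshold at 50.2 and 25.1 CPM, a ratio of 2.00 (1.86 to 2.16) that the prior count put under 2-fold.

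Lower drug enzymes were Cyp2d12, Cyp2a4 and Cyp2d9. Cyp2d12 was at 3.12 CPM in tumour and 42.5 in wild type kidney, 13.6-fold lower (11.5 to 16.3). Cyp2a4, a steroid hydroxylase, was at 172 and 543 CPM and Cyp2d9, a testosterone hydroxylase, at 115 and 255. Genes of the Cyp2d subfamily lie together on chromosome 15 and again differed in both directions. Shared 50-base stretches made up 38.0% for Cyp2a4, 40.8% for Cyp2a5, 28.3% for Cyp2d9, 16.3% for Cyp2d12 and 10.5% for Cyp2d26. Reads could thus be split between relatives, among them Cyp2a4 and Cyp2a5, which shared most with each other. Cyp2e1 was at 2720 and 2300 CPM, Cyp2a5 at 243 and 311, Cyp2s1 at 15.5 and 14.5 and Cyp1b1 at 10.8 and 16.1.

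Of 31 other genes of drug metabolism, 4 were higher and 3 lower in tumour kidney. The sulfotransferases Sult1a1, at 45.3 against 6.54 CPM, and Sult1d1, at 1200 against 497, led the higher ones. The glucuronosyltransferases Ugt2b5, at 95.7 against 337 CPM, and Ugt2b38, at 537 against 1740, led the lower ones. The receptor Nr1i2, which controls Cyp3a genes, was at 11.9 and 4.98 CPM, and Ahr, the receptor upstream of Cyp1a1, at 13.0 and 7.55 without passing the rule.

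The only retinoic acid enzyme with 100 counts in a kidney library was Cyp26b1 (chromosome 6, 84571414 to 84593908, minus strand). It was at 2.13 CPM in tumour and 6.94 in wild type kidney, 3.25-fold lower (2.57 to 4.14). Cyp26a1 had 6 and 5 counts and Cyp26c1 0 and 2. Of 12 retinoid partners 4 were higher, led by the retinal dehydrogenase Aldh1a1 at 78.9 against 9.37 CPM and the retinol carrier Rbp4 at 8.44 against 2.22.

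Sterol enzymes differed little in kidney, and none of 3 passed the rule. Cyp7b1, the oxysterol hydroxylase, was at 231 CPM in tumour and 186 in wild type kidney, Cyp27a1, the mitochondrial sterol hydroxylase, at 28.0 and 37.0, and Cyp39a1, which acts on oxysterols, at 7.54 and 5.90. Cyp46a1, the cholesterol hydroxylase of brain, had 9 and 38 counts. Among 13 sterol and bile acid partners Baat was higher, at 5.16 against 1.49 CPM, and Amacr, at 133 against 634, and Acox2, at 49.6 against 163, were lower. Cyp51, the sterol demethylase outside the symbol rule, was at 212 and 381 CPM.

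Steroid synthesis enzymes were close to absent from both kidneys. Cyp17a1 had 44 counts in tumour kidney and 4 in wild type, Cyp21a1 had 4 and 0 and Cyp11a1 0 and 2. Among the adrenal cortex markers, the defining factor Nr5a1 was at 0 in both kidney libraries, the receptor Mc2r was at 0.853 CPM in tumour kidney and 0 in wild type, and Star at 4.11 and 4.39. Of 5 genes of this list that could pass the rule, 1 was higher, the receptor accessory protein Mrap, which fat cells also express, at 7.61 against 1.32 CPM. Summed levels of the list were 115 and 125 CPM. Of 19 steroid partners Hsd3b5 was higher, at 10.1 against 4.11 CPM, and 3 were lower, led by Srd5a2 at 0.494 against 3.45 and Hsd17b2 at 3.79 against 12.1. None of 9 redox partners passed the rule, and Por was at 241 and 416 CPM and Fdx1 at 77.2 and 103.

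Markers of other kinds differed between the same 2 libraries. Of 9 androgen-responsive kidney genes, Cyp4a12a among them, 6 were lower in tumour kidney and none higher, with summed levels of 4290 and 28400 CPM, of which Kap made up 2690 and 23800. Slco1a1, of the same list, was at 23.1 and 488 CPM. Proximal tubule markers, which also hold Kap, were lower for 5 of 12 and higher for 1, with sums of 13700 and 43800 CPM. Adipocyte markers were higher for 9 of 13 and lower for none, with Adipoq at 123 and 9.70 CPM. Of 4 sex-linked genes that could pass, the Y-linked Eif2s3y was lower in tumour kidney and none higher, with list sums of 91.5 and 128 CPM. Of 10 neutrophil markers only 2 could pass, through their counts in the tumour kidney library, and both were higher. Hepatocyte markers were higher for 3 of the 7 that could pass, from a list of 14, with none lower. The part of these lists in the P450 differences was not tested, and fewer cells of a type cannot be told apart from less RNA per cell.

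Kidney and muscle were compared with edgeR's quasi-likelihood test over all 9 libraries, in which the pair of wild type muscle libraries supplies the only residual degree of freedom and single libraries are assumed to vary like it. Of 52 members tested among 16811 genes, 18 were higher in wild type kidney than in wild type muscle and 1 lower at an adjusted p under 0.05. Over all genes 8.45% were higher and 4.75% lower. In the tumour-bearing mice given PBS, 15 members were higher in kidney and none lower, beside 4.90% and 3.28% of all genes. The tests share no library, but they share the estimate of spread.

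Calls covered 4 of the classes. In the wild type comparison 8 fatty acid enzymes, 7 drug enzymes, 2 vitamin D enzymes and Cyp7b1 were higher in kidney. Cyp4b1 was higher by 7.84 ± 0.80 on the log2 scale (SE, edgeR adjusted p = 0.00167), Cyp7b1 by 7.31 ± 0.66 (adjusted p = 0.00167), and Cyp2d9 by 9.78 ± 0.78 (adjusted p = 0.00167). Cyp24a1 was higher by 7.05 ± 0.98 (adjusted p = 0.00287) and Cyp27b1 by 5.75 ± 1.11 (adjusted p = 0.0114). Cyp2e1 was the call with the largest adjusted p, at 3.85 ± 1.04 (adjusted p = 0.0462). It was not called in the tumour comparison, at 4.83 ± 1.43 (adjusted p = 0.086), and the difference between both contrasts was not tested.

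The 1 member lower in kidney was Cyp4f39, a fatty acid hydroxylase known from the skin barrier, at -5.36 ± 1.33 (edgeR adjusted p = 0.033). It had 12 and 5 counts in the tumour and wild type kidney libraries and 48 to 410 in muscle. In the tumour comparison it was at -4.36 ± 1.29 with an adjusted p of 0.0853. The test by limma-voom called 13 members higher and none lower in the wild type comparison, beside 3.77% of all genes higher, and neither a member nor another gene in the tumour comparison.

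Other members had levels of the same order in both tissues. Cyp27a1 was at 14.8 and 19.5 RPKM in tumour and wild type kidney and at 29.3 to 45.1 in muscle, and edgeR gave -1.35 ± 0.63 for wild type kidney against muscle (adjusted p = 0.226). Cyp26b1 was at 0.441 and 1.43 RPKM in kidney and 0.468 to 3.22 in muscle (edgeR log2 difference -1.28, adjusted p = 0.428). Cyp1a1 was at 1.25 and 0.422 RPKM in kidney and 1.19 to 3.26 in muscle, and after TMM scaling of all 9 libraries its kidney values lay below every muscle value. The test did not call it (-2.25 ± 1.13, adjusted p = 0.268). Cyp39a1, Cyp2u1, Cyp2d22 and Cyp20a1 were also uncalled in both comparisons.

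With TMM scaling, both kidney libraries lay above all 7 muscle libraries for 26 of 36 members with 100 or more counts and below them for 3, which were Cyp1a1, Cyp27a1 and Cyp4f39. Over all genes with 100 or more counts in a library, 33.9% lay above and 27.6% below. Of the 36 members, 35 reached 100 counts in a kidney library and 15 in a muscle library. Members that met the minimum through kidney alone could hardly lie below muscle. The 26 is thus partly fixed by the filter and is no result about the members beside the 33.9%. Overlapping values were found for 7 members: Cyp20a1, Cyp26b1, Cyp2c44, Cyp2d22, Cyp2f2, Cyp2u1 and Cyp39a1.

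**Figure D3:**
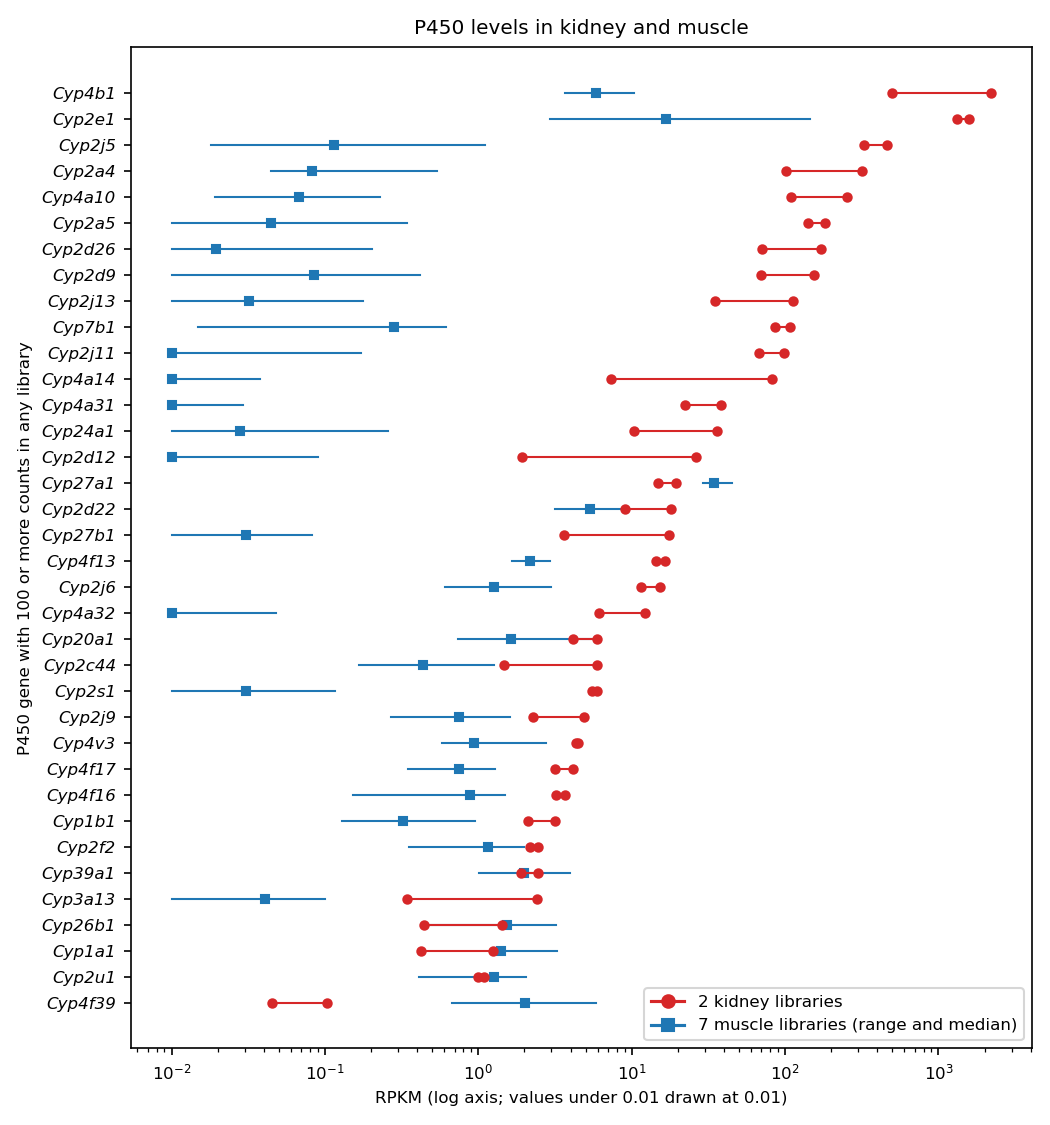
RPKM on a log axis for the 36 members with 100 or more counts in some library; red points are the 2 kidney libraries, blue bars the range and blue squares the median of the 7 muscle libraries, with values under 0.01 drawn at 0.01. Cyp4b1 and Cyp2e1 stood highest in kidney, and Cyp27a1 and Cyp4f39 lay to the right in muscle.

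Partner genes were also higher in wild type kidney than in muscle for several lists by edgeR's test. Among vitamin D partners 12 of 21 were higher and 1 lower, the retinoid receptor Rxrg. Among sterol and bile acid partners 10 of 16 were higher, among steroid partners 9 of 20, among drug metabolism partners 18 of 33 with Sult1a1 lower, and among redox partners 3 of 9, which were Por, Cyb5a and Pgrmc1. Fatty acid partners were higher for 4 of 20 and retinoid partners for 1 of 14, Rdh10. All 12 proximal tubule markers were higher in kidney.

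Kidney-type transcripts were also present at low level in muscle libraries, most in wild type muscle library 1. Its proximal tubule markers stood at a median of 0.202% of their wild type kidney level (range 0.12% to 0.666%), against medians of 0.0142% to 0.0826% in the other 6. Cyp2j5 had 110 counts in that library and 2 to 21 in the others, and Cyp24a1 had 23 against 0 to 5. Kap had 1123 counts there and 67 to 532 in the other muscle libraries. The part of these transcripts in the low P450 counts of muscle was not tested.

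In muscle the leading member was Cyp27a1 or Cyp2e1 in every library. Cyp27a1 (chromosome 1, 74713574 to 74737892) held 1397 to 2639 counts and 52.3 to 82.1 CPM, a range narrower than that of Cyp2e1, from 4.86 to 201 CPM. Summed P450 RPKM was 241 in wild type DKK1 muscle and 197 in wild type muscle library 2, with 66.7% and 66.4% in the drug class, and 70.2 to 106 in the other 5. The 2 libraries labelled knockout held 58.2% and 58.4% of the sum in the sterol class. Vitamin D enzymes had 23 counts or fewer each in muscle.

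The 2 wild type PBS muscle libraries themselves differed. Of 13 members that could pass, 5 were 2-fold or more higher in library 2 than in library 1 and 1 was lower, beside 15.2% and 11.1% of all genes. Cyp2e1 was at 200 and 29.8 CPM, Cyp4v3 at 7.65 and 2.12, Cyp20a1 at 4.45 and 1.38, Cyp2j6 at 6.89 and 2.72 and Cyp4f39 at 5.03 and 2.21, while Cyp2j5 was at 0.267 and 5.07. For this reason a member was counted as higher or lower than wild type only when it passed against both libraries. Counts against 1 wild type library alone are given below without the share of all genes. They show only how far a count depends on the library chosen.

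No member was called by edgeR's quasi-likelihood test in any of 8 muscle contrasts, in which 35 members and 15482 genes were tested and 0% of all genes was called in either direction. At an unadjusted p under 0.05 by edgeR, 2 members passed for knockout PBS against wild type, beside 1.18% of all genes. There was 1 member for tumour PBS against wild type (1.07% of all genes), for MDC against PBS in tumour muscle (0.245%), for DKK1 in wild type (1.33%) and for knockout against wild type with DKK1 (1.41%). There were 0 members for MDC against wild type (1.49%), for DKK1 in the knockout (0.31%) and for the difference between both DKK1 contrasts (0.284%). With DESeq2, Cyp2e1 was lower in knockout PBS than in wild type PBS muscle (adjusted p = 0.0164). It was 1 of 15 lower genes among 15482, or 0.0969%. Cyp2e1 was also lower in knockout DKK1 than in wild type DKK1 muscle (DESeq2 adjusted p = 0.00122), as 1 of 4 lower genes, or 0.0258%. No other member was called by DESeq2 in these contrasts, and limma-voom called none. In all these tests the spread came from the wild type pair, and it includes any difference between the letters B and C. The values that follow are descriptions by the 2-fold rule.

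In muscle of the tumour-bearing mouse given PBS, Cyp26b1 was the 1 member of 12 past the rule against both wild type libraries. It was at 2.14 CPM, from 74 counts, against 9.32 and 14.9 in wild type, 5.66-fold lower than their mean. Over all genes 0.428% were lower by the same rule and 1.29% higher. The edgeR log2 difference was -2.46 ± 0.88, with an adjusted p of 1. Against library 1 alone, of the same letter B, 2 members were higher and 2 lower, and against library 2 alone 1 was higher and 3 lower. Shares of all genes against 1 library are not given, so these counts are no result about the members. Of 10 neutrophil markers 8 could pass and all 8 were higher, with summed levels of 327 CPM against 13.4 and 2.89. These 8 met the count minimum in the tumour library, where they were high, so 8 of 8 is not a share of the list. The part of neutrophil markers was not tested. None of the retinoid partners passed the rule.

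With MDC, Cyp26b1 was at 8.66 CPM in tumour muscle, 4.05-fold above the 2.14 CPM of tumour PBS. Wild type PBS muscle was at 9.32 and 14.9 CPM. Its lower level in tumour PBS than in wild type and its higher level with MDC both rest on the same tumour PBS library, with 74 counts. Cyp26b1 was the 1 higher member of 12, beside 1.12% of all genes. The 3 lower members, beside 3.39% of all genes, were all drug enzymes. Cyp1a1 was at 3.92 CPM with MDC and 8.58 with PBS, Cyp2e1 at 33.0 and 66.5 and Cyp1b1 at 1.78 and 3.65. With DESeq2 size factors 1 member was lower in place of 3. The edgeR log2 difference of Cyp26b1 was 2.03 ± 0.93 (adjusted p = 1).

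Beside these, adipocyte markers were lower with MDC for 8 of 13, with Adipoq at 13.0 CPM against 32.9. Of 10 neutrophil markers 8 could pass and all 8 were lower. These met the count minimum in the tumour PBS library, where they were high. Macrophage markers were lower for 3 of 10. Hepatocyte markers went the other way, with summed levels of 37.4 CPM with MDC and 14.4 with PBS. Of 14 in the list only 4 could pass, and all were higher, which were Serpina3k, Hpx, Serpina1a and Alb. They met the count minimum in the MDC library, where they were high, so 4 of 4 is not a share of the list. Of the partner lists, 2 of 13 fatty acid genes were lower, among them Pparg at 4.27 against 10.1 CPM. Steroid partners were lower for 2 of 9, Nr3c2 at 1.61 against 3.88 CPM and Hsd11b1 at 3.96 against 9.01. Among drug metabolism partners 4 of 20 were lower, all Ugt1a genes, which share exons and can share reads. Rbp4 was the 1 lower retinoid gene of 7, at 3.31 against 6.69 CPM. The part of fat, blood and liver transcripts was not tested.

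Against wild type PBS, no member of 8 passed the rule in MDC-treated tumour muscle, where 0.727% of all genes were higher and 0.796% lower. Against library 2 alone 4 members were lower, and against library 1 alone 1 was lower. Without the shares of all genes, which are not given, these counts are no result about the members. Cyp26b1, at 8.66 CPM, lay below both wild type values by less than 2-fold.

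DKK1 in wild type muscle left no member of 13 past the rule, beside 2.37% of all genes higher and 0.236% lower. Against library 1 alone 8 members were higher and 2 lower, and against library 2 alone none differed. The share of all genes against library 1 alone is not given, so the 8 and 2 are no result about the members. Cyp2e1 was at 201 CPM with DKK1 and at 200 in wild type library 2, which has the same letter C. Cyp26b1 was at 11.1 CPM, between both wild type values, and Cyp4b1 at 15.4 against 13.6 and 12.3. Of 14 fatty acid partners 2 were higher than in both wild type libraries, Ptges at 8.49 against 1.57 and 3.87 CPM and Alox12 at 3.10 against 0.738 and 1.47.

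In the library labelled knockout PBS, 1 member of 8 was higher and 2 were lower than in both wild type libraries, beside 0.795% and 0.667% of all genes. Cyp4f39 (chromosome 17, 32452723 to 32493320) was at 15.6 CPM against 2.21 and 5.03. Cyp2e1 (chromosome 7, 140763739 to 140774987) was at 7.46 CPM against 29.8 and 200, and Cyp26b1 at 3.83 against 9.32 and 14.9. The edgeR log2 differences were 2.12 ± 0.80 for Cyp4f39, -3.92 ± 1.04 for Cyp2e1 and -1.65 ± 0.84 for Cyp26b1, each with an adjusted p of 1. Against library 2 alone, of the same letter C, 5 members passed, with Cyp4f39 higher and Cyp2e1, Cyp26b1, Cyp4v3 and Cyp2j6 lower. The share of all genes for this comparison is not given, so the 5 are no result about the members. Adipocyte markers were lower than in both wild type libraries for 5 of 8 and higher for none, and their part was not tested.

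DKK1 in the knockout gave no member of 12 past the rule, beside 2.38% of all genes higher and 0.637% lower. Cyp4f39 was at 12.7 CPM with DKK1 and 15.6 with PBS, Cyp2e1 at 4.86 and 7.46, and Cyp27a1 at 81.7 and 82.1. Cyp26b1 was at 7.06 and 3.83 CPM. Acot1, which cleaves long-chain acyl-CoA, at 4.30 against 1.20 CPM, was the 1 higher fatty acid partner of 11, and the mineralocorticoid receptor Nr3c2, at 12.6 against 6.06, the 1 higher steroid partner of 9. The contrast of the DKK1 difference between knockout and wild type called no member by edgeR, DESeq2 or limma-voom, and 0 members had an unadjusted p under 0.05 by edgeR.

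Between both DKK1-treated libraries, 3 members of 14 were lower in that labelled knockout and none higher, beside 9.90% and 2.71% of all genes. Cyp2e1 was at 4.86 CPM, from 157 counts, against 201 in wild type, from 7733, a 41.4-fold lower level. Cyp1b1 was at 1.58 against 3.88 CPM and Cyp4b1 at 7.28 against 15.4. Adipocyte markers were lower for 11 of 13, endothelial markers for 10 of 11 and smooth muscle markers for 8 of 9. Partner lists were lower for 4 of 15 fatty acid genes, led by Pparg at 3.22 against 14.9 CPM, for 3 of 11 retinoid genes, led by Rbp4 at 0.619 against 10.3 and Aldh1a2 at 2.38 against 6.75, and for 3 of 16 drug genes, led by Fmo1 at 25.4 against 68.9 and Abcb1a at 12.6 against 30.5. Steroid partners were lower for 2 of 9, Hsd17b12 and Hsd11b1, and Pgrmc1 was the 1 lower redox partner of 9. No partner gene of these lists was higher.

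Across the 7 muscle libraries Cyp2e1 and the fat cell marker Adipoq were highest in the same 3 libraries and lowest in the same 2. Adipoq was at 111 CPM in wild type library 2, 81.3 in wild type DKK1 and 32.9 in tumour PBS, at 13.1 in wild type library 1 and 13.0 in tumour MDC, and at 4.70 and 3.47 in the libraries labelled knockout PBS and knockout DKK1. Cyp2e1 is known to be expressed in fat as well as liver and kidney. The part of fat cells in its differences was not tested. Cyp4f39 had another order, with the 2 libraries labelled knockout at 15.6 and 12.7 CPM and the other 5 at 2.21 to 7.01.

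**Figure D4:**
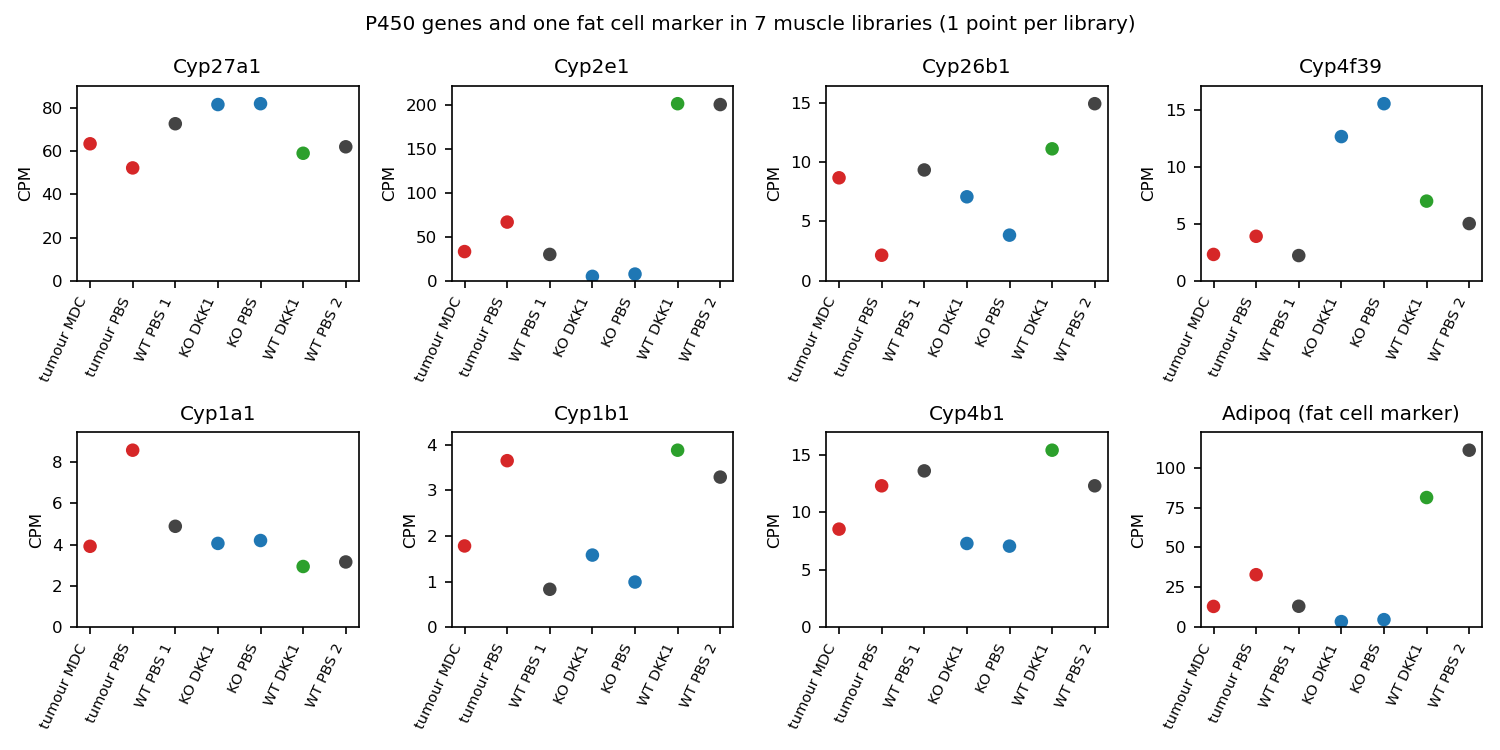
CPM in each of the 7 muscle libraries (1 point per library; grey wild type PBS, green wild type DKK1, red tumour, blue labelled knockout) for 7 members and the fat cell marker Adipoq. Cyp2e1 and Adipoq were lowest in both libraries labelled knockout, Cyp4f39 was highest there, and Cyp26b1 was lowest in tumour PBS at 2.14 CPM.

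Other members of muscle were low. Cyp4f13 was at 2.27 to 4.89 CPM, Cyp4v3 at 2.12 to 7.65, Cyp2j6 at 2.72 to 8.44 and Cyp2u1 at 0.985 to 4.30. Cyp2d22 ranged from 10.3 to 20.9 CPM and Cyp39a1 from 3.92 to 9.79. Cyp20a1, for which no substrate is settled, ranged from 1.38 to 6.82 CPM. P450 genes outside the symbol rule were low in muscle as well. Cyp51 held 118 to 422 counts, Tbxas1, the thromboxane synthase, 19 to 48, Ptgis, the prostacyclin synthase, 20 to 159 and Cyp4a12a at most 62. In kidney Tbxas1 was at 4.87 CPM in tumour and 9.23 in wild type, Ptgis held 45 and 69 counts, Cyp4a30b 2 and 3, and Cyp4f41-ps 17 and 5, while Cyp2c53-ps was at 0.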

How the data were processed

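RNA was sequenced from 9 mouse libraries, 2 of kidney and 7 of muscle. The deposited tables give raw read counts for 24421 gene symbols, with a length and RPKM that the authors computed from the same counts. HISAT2 2.1.0 and mm10 are named per the submitters' processing notes; which tool counted reads, with what annotation and strand setting, no source used here states. Positions came from GENCODE M21 (GRCm38) by symbol, which matched 92 of 94 members.

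Counts were tested with edgeR 4.0.16 (quasi-likelihood, filterByExpr with a minimum count of 10, TMM, Benjamini-Hochberg over all genes) in R 4.3.3, with 1 coefficient per group; the fit was checked on simulated counts. DESeq2 1.42.0 and limma 3.58.1 (voom) were alternatives. CPM used TMM within each tissue, and log2 differences a prior count of 2. Members and lists were chosen with earlier results of these data known. Named genes were up to 10 members per direction and comparison past the 2-fold rule, a panel covering every class, up to 2 genes per direction from each partner list, and the P450 genes outside the symbol rule. Other members and markers are named as context, chosen after their values were seen. Values of some partner genes that the rule would name are not reported here.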

Additional observations from a re-analysis of the deposited data

How the results depend on the processing

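Across 90 counts and 387 member differences recomputed under the alternatives, no difference past the 2-fold rule changed sign. Counts of members past the 2-fold rule that moved by over 1.5 times, or away from 0, were these. Other changes of scaling moved such a count by 2 at most. At a threshold of 4-fold they were 5 in kidney (main 16), 0 for MDC against PBS in tumour muscle (main 4), 0 for knockout PBS against wild type (main 3) and 1 for knockout against wild type with DKK1 (main 3). At 1.5-fold they were 2 for tumour PBS muscle against wild type (main 1), 1 for DKK1 in wild type (main 0), 3 for DKK1 in the knockout (main 0) and 10 for knockout against wild type with DKK1. With a minimum of 30 counts they were 7 for MDC against PBS, 1 for MDC against wild type (main 0), 5 for knockout PBS against wild type, 1 for DKK1 in the knockout and 9 for knockout against wild type with DKK1. With total counts in place of TMM they were 2 for tumour PBS muscle and 6 for knockout against wild type with DKK1, and with DESeq2 size factors 2 for MDC against PBS. With total counts the median log2 difference of all genes that could pass reached 0.48 in muscle, for DKK1 in wild type, where TMM gave 0.03. Against either wild type library alone, the counts were 4 and 4 for tumour PBS, 1 to 4 for tumour MDC, 0 to 10 for DKK1 and 4 to 5 for knockout PBS. Shares of all genes are not given for these, which show only how far a count depends on the library chosen. By test, limma-voom called 0 members for tumour kidney against tumour muscle (main 15), and DESeq2 called 1 member, Cyp2e1, in each of knockout PBS against wild type and knockout against wild type with DKK1 (main 0). Leaving out a wild type muscle library leaves no residual degrees of freedom, so the tests were not rerun that way. No paired analysis was possible because the replicate numbers exist in 1 group only and no label links libraries of an animal. Depth limits muscle most, where 7 to 13 members reached 100 counts in a library.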
